A study of Homo sapiens with 4 samples.

Results

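The genes described here are 10 receptors and ligands of the TNF family, most of which lymphocytes use to pass growth and survival signals between neighbouring cells: TNFRSF1A, TNFRSF1B, TNFRSF4, TNFRSF8 (CD30), TNFSF8 (CD30 ligand), TNFRSF9, TNFRSF17, TNFRSF18, CD27 and CD70. Every probe set of the array whose only gene symbol is one of these names was taken, which gave 16 of 54675 probe sets for the 10 genes, of 19775 genes with such a probe set. Of the 10 genes 6 had 1 probe set, 2 had 2 and 2 had 3. Expression was measured in 2 human T cell lymphoma lines, MyLa, a mycosis fungoides line, and HH, a cutaneous T cell lymphoma line. Both were kept for 40 hours in 0.1% serum. The 4 groups were MyLa with 5 ng/ml IL-32γ, MyLa without it (control), HH with 5 ng/ml IL-32γ and HH without it (control), with 1 array each. IL-32γ is an isoform of interleukin-32, a cytokine of T cells, NK cells and epithelial cells, and the series as titled asks about IL-32 in mycosis fungoides. Each line is a single established culture, and the labels do not say whether any 2 arrays came from separate cultures.

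Members of the TNF receptor family are surface proteins that cluster when they bind a ligand of the TNF family, which itself sits on a neighbouring cell or is shed from it. Most of the receptors named here recruit TRAF adaptors and pass the signal to NF-κB, while TNFRSF1A carries a death domain and can also start cell death. CD30 marks activated T cells and several T cell lymphomas, a share of mycosis fungoides among them, and is the target of an antibody-drug conjugate used against these tumours.

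The deposited table gives 1 log2 expression value for each probe set and array. Values ran from 2.13 to 16.0, and a value of 5 was taken as the level above which a probe set counts as measured, which 42.9% to 43.3% of probe sets reached on each array. The 2 arrays of MyLa correlated at r = 0.994 over the probe sets and the HH pair at r = 0.997, against r = 0.908 between the control arrays of the lines. Of 12 T cell marker genes, CD2, CD3D, CD3G, CD247 and ZAP70 were measured on every array, CD3E, CD4 and CD5 in HH alone, and CD7, CD28, LCK and TRAT1 on none. MyLa also held CD8A at 11.08 and 11.05 (IL-32γ and control) and the collagen gene COL3A1 at 13.16 on both arrays. Both genes were below 5 in HH. Of the other NK and cytotoxic markers, GNLY, KLRD1, NCAM1 and NKG7 were below 5 on every array. GZMB passed 5 on the MyLa IL-32γ array alone (5.42). Of the other fibroblast and epithelial markers, COL1A1 read 10.82 and 11.30 in MyLa, and COL1A2, DCN, EPCAM, KRT5 and KRT14 were below 5 on every array.

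The pattern of the family divided the lines. TNFRSF1A, TNFRSF9 (CD137) and TNFRSF18 (GITR) were measured in MyLa and below 5 in HH, whereas TNFRSF17 (BCMA) and the CD30 ligand were measured in HH and below 5 in MyLa. CD30 itself, TNFRSF1B, TNFRSF4 (OX40) and CD70 were measured on all 4 arrays, the first 2 far higher in HH. CD27, the receptor of CD70, was below 5 on every array. By probe set, 4 were measured on all 4 arrays, 6 on both MyLa arrays only, 1 on 1 MyLa array only, 2 on both HH arrays only and 3 on none. The same shares over all probe sets were not computed, so these counts do not show a trait particular to the family.

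**Figure D1:**
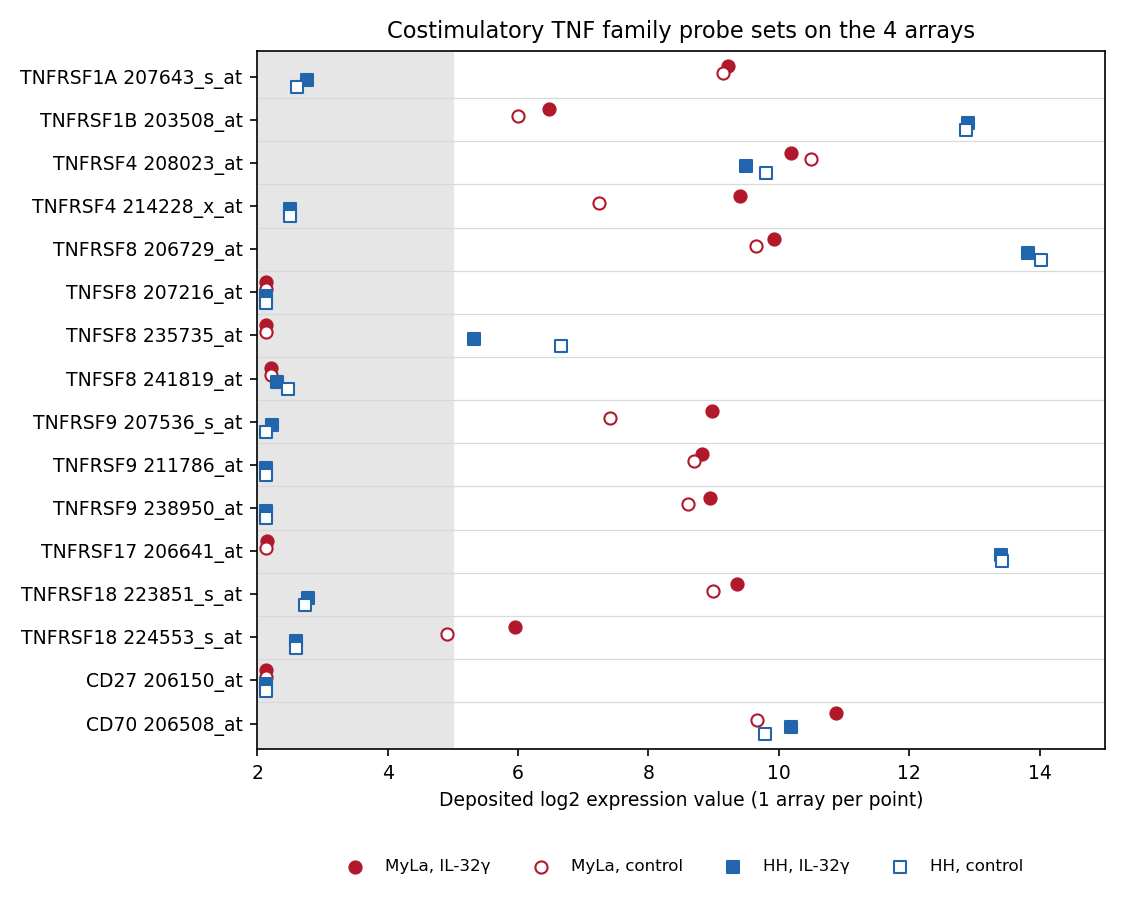
Deposited log2 value of each of the 16 probe sets (rows) on the 4 arrays, with filled symbols for IL-32γ, open symbols for control, circles for MyLa and squares for HH, and grey for values below 5. TNFRSF1A, TNFRSF9 and TNFRSF18 lie in the grey area in HH, TNFRSF17 in MyLa and CD27 in both lines, and the squares of TNFRSF8 at 13.82 and 14.02 stand far to the right of its circles at 9.93 and 9.65.

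Some of the 10 genes lie side by side in the genome, and how often neighbouring genes share a line difference was not tested. In the RefSeq annotation of assembly GRCh38.p14, 5 of the 10 genes are on chromosome 1. TNFRSF8 and TNFRSF1B, both higher in HH, have 0 protein-coding genes between them, and so do TNFRSF18 and TNFRSF4. TNFRSF1A and CD27 lie on chromosome 12 with 2 between, one of them the lymphotoxin beta receptor gene LTBR. For 6 of the 10 genes RefSeq's table gives a promoter window on GRCh38.p14. The 250 bases before the start are shown for the 2 neighbours that were higher in HH and for 2 genes of the same chromosome that were below 5 there, read 5′ to 3′ on the gene's strand. Capitals mark matches to the AP-1 motif TGANTCA or to the NF-κB consensus, searched on both strands:
TNFRSF8, chr1:12063053-12063302, plus strand: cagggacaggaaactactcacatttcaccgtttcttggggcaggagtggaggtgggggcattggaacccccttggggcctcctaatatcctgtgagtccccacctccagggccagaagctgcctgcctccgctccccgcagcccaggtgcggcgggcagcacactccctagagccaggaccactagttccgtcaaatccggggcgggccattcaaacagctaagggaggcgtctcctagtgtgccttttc
TNFRSF1B, chr1:12166741-12166990, plus strand: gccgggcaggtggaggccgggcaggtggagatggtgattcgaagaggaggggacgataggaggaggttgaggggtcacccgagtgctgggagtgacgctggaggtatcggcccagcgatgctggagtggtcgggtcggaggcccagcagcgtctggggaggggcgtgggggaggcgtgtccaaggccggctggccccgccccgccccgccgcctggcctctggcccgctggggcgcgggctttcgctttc
TNFRSF9, chr1:7940840-7941089, minus strand: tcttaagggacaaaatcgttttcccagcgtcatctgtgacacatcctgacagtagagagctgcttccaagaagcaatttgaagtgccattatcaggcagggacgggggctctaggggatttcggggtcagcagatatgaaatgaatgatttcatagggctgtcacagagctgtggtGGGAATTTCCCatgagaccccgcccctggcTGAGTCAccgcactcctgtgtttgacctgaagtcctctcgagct
TNFRSF18, chr1:1206593-1206842, minus strand: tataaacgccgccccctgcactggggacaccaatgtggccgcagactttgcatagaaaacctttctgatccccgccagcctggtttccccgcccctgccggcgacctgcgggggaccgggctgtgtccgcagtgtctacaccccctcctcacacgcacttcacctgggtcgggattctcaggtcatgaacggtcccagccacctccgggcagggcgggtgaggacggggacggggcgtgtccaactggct

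Of these 4 windows, that of TNFRSF9 held both motifs. Its NF-κB matches, 1 per strand, overlap and span the bases from 74 to 64 before the start, and its AP-1 match runs from 44 to 38 before the start. The windows of TNFRSF8, TNFRSF1B and TNFRSF18 held neither. Among 35116 windows of the same length, 6.57% held the AP-1 motif and 9.96% the NF-κB consensus. The GC box GGGCGG (42.6% of windows, either strand) occurred 3 times in the TNFRSF18 window, 2 times in that of TNFRSF1B and 1 time each in those of TNFRSF8 and TNFRSF9. G and C made up 61.6% of the TNFRSF8 window, 72.4% of the TNFRSF1B window, 51.6% of the TNFRSF9 window and 65.6% of the TNFRSF18 window. Of the 2 windows not shown, that of CD27 held 1 AP-1 match and that of TNFRSF1A none of these motifs. The matches are letters in a window and no measurement of binding.

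CD30, encoded by TNFRSF8, read 9.93 on the MyLa IL-32γ array and 9.65 on the MyLa control array, against 13.82 on the HH IL-32γ array and 14.02 on the HH control array. The lines did not overlap, and within a line the arrays lay less than 0.3 apart. The mean was 9.79 ± 0.19 in MyLa and 13.92 ± 0.14 in HH (SD, n = 2 arrays each), a log2 difference of -4.13 (95% interval -4.59 to -3.67), which puts HH 17.5-fold higher (limma adjusted p = 0.000501). In this comparison the 2 arrays of a line stand as its replicates, so any IL-32γ effect is part of their spread, and the p-values measure the spread between these arrays alone. Where a line lay below 5 on both arrays, it was raised to a constant 5. Such a probe set was tested only through its values in the other line, which by itself requires a difference. Its SE, p-value and rank then rest on the spread of that other line and add nothing to the readings. Of the 25306 probe sets tested, 95.1% had a smaller difference between the lines than TNFRSF8.

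The ligand of CD30 gave a weaker and less certain signal. Of the 3 TNFSF8 probe sets, 207216_at and 241819_at were below 5 on every array. The third, 235735_at, read 2.13 on both MyLa arrays, 5.32 on the HH IL-32γ array and 6.66 on the HH control array. Only the HH arrays thus passed 5, the IL-32γ one by little. The line difference, with MyLa raised to 5, was -0.99 (SE 0.50) and did not pass (limma adjusted p = 0.180). It was -1.66 without the HH IL-32γ array and -0.32 without the HH control array, so its size rests on which HH array is used. The genes closest to TNFSF8 over the 4 arrays, by Euclidean distance between values centred on their own mean, were NEK11 (0.13), PTPN13 (0.15), LOC100422781 (0.15), SERTAD4 (0.17) and ST3GAL6 (0.18), among 5303 genes that spread by 1 or more over the arrays. TNFSF8 and these genes other than LOC100422781 were below 5 on both MyLa arrays, so their closeness rests on values raised to 5.

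By the same measure the genes closest to TNFRSF8 were AKAP5, which anchors protein kinase A (distance 0.14), RNA45SN5 (0.14), PTPRCAP, a protein associated with the phosphatase CD45 (0.16), the tubulin gene TUBB2A (0.17) and LOC389834 (0.19). AKAP5 read 5.77 and 5.34 in MyLa and 9.68 and 9.88 in HH (IL-32γ and control), the same step as TNFRSF8 at a lower value on its own probe set. TUBB2A read 8.04 and 7.87 in MyLa and 11.80 and 12.11 in HH. LOC389834 was below 5 in MyLa, so its closeness rests on values raised to 5. With 4 arrays, likeness is mostly a matter of the step between lines.

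The 2 receptors of TNF itself were set the opposite way in the lines. TNFRSF1A, the death domain receptor, read 9.22 and 9.14 in MyLa (IL-32γ and control) and 2.76 and 2.61 in HH. With HH raised to 5, it was at least 18.1-fold higher in MyLa (log2 difference 4.18, SE 0.11, limma adjusted p = 0.000217). TNFRSF1B, which lacks a death domain and signals through TRAF2, read 6.47 and 5.99 in MyLa and 12.91 and 12.86 in HH. Its log2 difference was -6.65 (SE 0.20, adjusted p = 0.000306), or 101-fold higher in HH. Both TNF receptors therefore differed far beyond the spread between the arrays of a line. Of their ligands, TNF was measured in MyLa alone and lymphotoxin alpha in both lines. TNF read 8.69 and 9.01 in MyLa and 3.40 and 4.77 in HH (log2 difference with HH raised to 5 of 3.85, adjusted p = 0.000539). The other ligand, lymphotoxin alpha (LTA), read 11.66 and 11.12 in MyLa and 10.08 and 10.30 in HH, a log2 difference of 1.20 (adjusted p = 0.0222).

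TNFRSF9, TNFRSF18 and TNFRSF4 encode costimulatory receptors that appear on T cells after activation. All 3 probe sets of TNFRSF9 were measured in MyLa and below 5 in HH. Probe set 211786_at read 8.83 and 8.70 in MyLa, 238950_at 8.95 and 8.61, and 207536_s_at 8.98 and 7.41 (IL-32γ and control), against 2.13 to 2.22 in HH. The difference was at least 13.6-fold by 211786_at (adjusted p = 0.000287), at least 13.7-fold by 238950_at (adjusted p = 0.000613) and at least 9.17-fold by 207536_s_at (adjusted p = 0.0189, all limma). For 207536_s_at the call was lost when 1 HH array was left out, with an adjusted p of 0.203 without the IL-32γ array and 0.198 without the control array, and with no floor (0.0602). Its ligand gene TNFSF9 was measured in both lines, at 11.15 and 11.17 in MyLa and 10.44 and 10.57 in HH, and the log2 difference of 0.65 stayed below the 2-fold minimum.

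TNFRSF18 read 9.36 and 8.99 in MyLa and 2.77 and 2.73 in HH on probe set 223851_s_at, at least 18.1-fold higher in MyLa (log2 difference 4.17, SE 0.17, adjusted p = 0.000568). Its second probe set, 224553_s_at, passed 5 on 1 array alone, reading 5.96 and 4.91 in MyLa and 2.60 on both HH arrays, and was not tested. The ligand gene TNFSF18 was below 5 on every array.

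For TNFRSF4 the 2 probe sets disagreed. Probe set 208023_at was measured in both lines, at 10.18 and 10.50 in MyLa and 9.50 and 9.80 in HH, a log2 difference of 0.69 (SE 0.19, adjusted p = 0.0507) that did not pass. Probe set 214228_x_at, whose _x suffix marks probes that can match several transcripts, read 9.40 and 7.24 in MyLa and 2.51 on both HH arrays. It was at least 9.99-fold higher in MyLa (SE 0.80 on the log2 scale, adjusted p = 0.0367), a call lost with a floor of 6 (adjusted p = 0.0793), with no floor (0.0981) and without either HH array (0.267 without the IL-32γ array, 0.261 without the control array). The line difference of TNFRSF4 is thus uncertain. Its ligand gene TNFSF4 (OX40 ligand) was on the MyLa side, at 12.18 and 12.17 in MyLa and 4.01 and 3.82 in HH (log2 difference of at least 7.18, adjusted p = 0.000139).

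TNFRSF17, the receptor by which plasma cells take survival signals from BAFF and APRIL, was high in HH. It read 2.15 and 2.13 in MyLa and 13.41 and 13.43 in HH, at least 341-fold higher in HH (log2 difference -8.42, SE 0.10, limma adjusted p = 0.000139). Of the 25306 tested probe sets 99.8% differed less. MyLa was a constant 5 in this fit, so the SE, p-value and rank add nothing to the readings. Among 8 B and plasma cell markers with a probe set, MZB1 was the one measured, in both lines, and CD22, CD79A, CD79B, JCHAIN, MS4A1, PAX5 and SDC1 were below 5 on all 4 arrays. The summed linear level of the 8 was 238 and 251 in MyLa and 128 and 160 in HH (IL-32γ and control). The BAFF gene TNFSF13B was measured in both lines, at 7.45 and 8.37 in MyLa and 9.38 and 9.44 in HH on probe set 223502_s_at, and was lower in MyLa (log2 difference -1.50, adjusted p = 0.0346), also on 223501_at (-1.67, adjusted p = 0.00731). The APRIL gene TNFSF13 was below 5 on every array.

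CD70, the ligand of CD27 on activated lymphocytes, was the ligand of the set that both lines carried. It read 10.88 and 9.66 in MyLa and 10.19 and 9.78 in HH. The MyLa IL-32γ array stood highest, and the ranges of the lines overlapped. The line difference of 0.28 did not pass (95% interval -1.10 to 1.67, adjusted p = 0.651), and an interval that wide does not show the lines to be alike. The receptor CD27 read 2.13 on every array with its single probe set.

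In total 12 of the 16 probe sets were tested between the lines, and 6 were higher and 3 lower in MyLa. Over all tested probe sets 18.2% were higher and 16.8% lower by the same rule. Of the 12, 8 had been measured in 1 line only, which by itself requires a difference, so the count says little. Of the 4 measured on all 4 arrays, TNFRSF8 and TNFRSF1B passed and TNFRSF4 (208023_at) and CD70 did not. Markers of other cell types moved with the lines as well. The 7 fibroblast and epithelial markers (COL1A1 and COL3A1 measured on both MyLa arrays, COL1A1 on the HH IL-32γ array) summed to 11006.5 and 11727 in MyLa and 79.1 and 55.6 in HH. Of 4 myeloid markers with a probe set, ITGAM was measured, in MyLa alone (8.73 and 9.00), and the 4 summed to 438 and 525 in MyLa and 17.5 on both HH arrays. Their part in the line differences of the TNF family was not tested. The control probe set for the 5′ end of ACTB also differed, at 11.81 and 10.12 in MyLa and 13.58 and 12.69 in HH (IL-32γ and control). That for its 3′ end read 15.07 to 15.27 on the 4 arrays. For GAPDH the 5′ end read 14.75 and 14.06 in MyLa and 14.88 and 14.73 in HH. Whether this bears on the line differences was not tested.

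**Figure D2:**
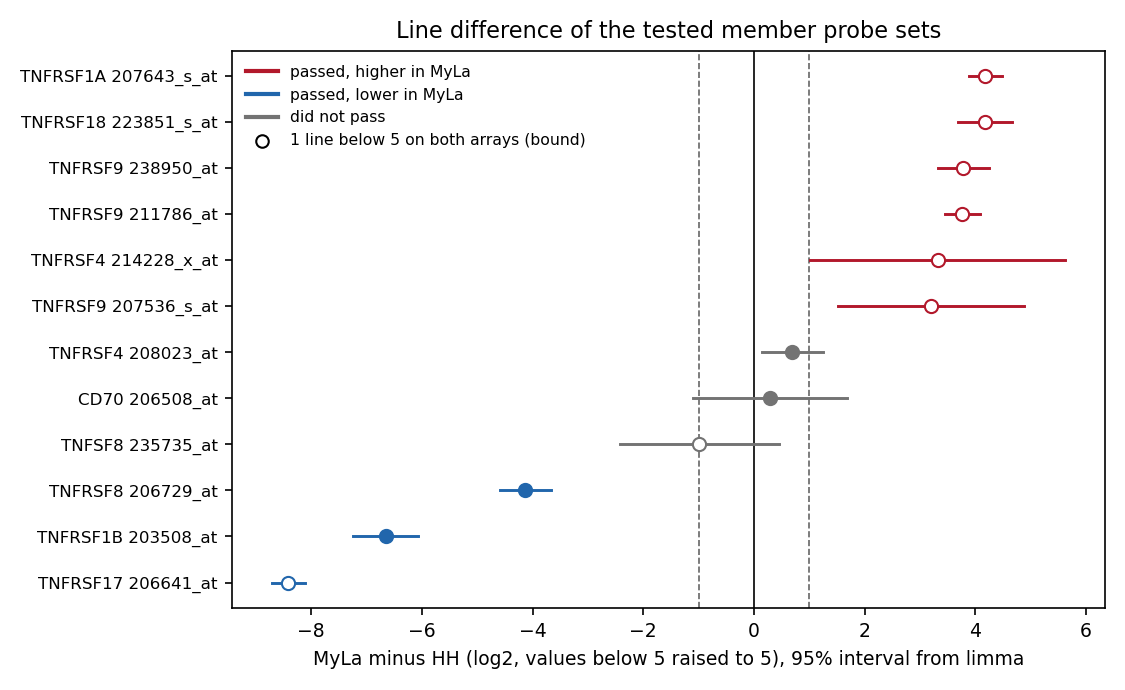
Log2 difference MyLa minus HH of the 12 tested probe sets with 95% intervals from limma (n = 2 arrays per line), with open circles where 1 line was below 5 on both arrays and dashed lines at 2-fold. TNFRSF17, TNFRSF1B and TNFRSF8 lie between -8.42 and -4.13, TNFRSF1A, TNFRSF18 and TNFRSF9 between 3.20 and 4.18, and the intervals of CD70 and TNFSF8 cross 0.

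With IL-32γ, MyLa showed higher values of CD70 and of single probe sets of TNFRSF4, TNFRSF9 and TNFRSF18, while CD30 stayed within 1.5-fold. In HH only the CD30 ligand passed 1.5-fold, and it was lower. With 1 array per condition these differences have no test, and 1.5-fold is a size and not a significance level.

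CD70 in MyLa differed by 1.22 on the log2 scale, 2.33-fold, more than 97.4% of measured probe sets. In HH it was higher by 0.41, or 1.33-fold, more than 90.4% of them. Both lines thus had the higher CD70 value with IL-32γ. Across the lines the mean difference was 0.82 (SE 0.26, higher in 2 of 2 lines), and limma, blocked by line, gave it an unadjusted p of 0.0432 and 0.490 after adjustment. The control probe sets for the 5′ ends of ACTB (1.69 in MyLa, 0.89 in HH) and GAPDH (0.68 and 0.15) were also higher with IL-32γ. Those for the 3′ ends lay between -0.08 and 0.04. Their part in the CD70 response was not tested. The genes closest to CD70 over the 4 arrays were FAM184B (distance 0.13), the formin FMNL3 (0.13), LINC00513 (0.14), the importin KPNA6 (0.15) and SH3GLB2 (0.16). KPNA6, for example, read 13.10 and 12.07 in MyLa and 12.44 and 12.13 in HH.

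Probe sets of the same receptor differed in their IL-32γ response in MyLa. TNFRSF9 was higher by 1.57 (2.97-fold) on 207536_s_at, by 0.34 on 238950_at and by 0.12 on 211786_at. TNFRSF4 was higher by 2.17 (4.49-fold) on 214228_x_at and stood at -0.32 on 208023_at. TNFRSF18 was at least 1.94-fold higher on 224553_s_at, which was below 5 on the control array, and higher by 0.38 on 223851_s_at. With the IL-32γ array these 3 genes thus have 1 probe set each past 1.5-fold and 1 or 2 that are not. On the same arrays the control probe set for the 5′ end of ACTB differed by 1.69 and that for its 3′ end by -0.08, and for GAPDH the 5′ and 3′ differences were 0.68 and 0.04. In HH the 5′ differences were 0.89 for ACTB and 0.15 for GAPDH. Their part in the responses of single probe sets was not tested.

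CD30 stood at 0.27 in MyLa and -0.19 in HH, TNFRSF1B at 0.48 and 0.04, and TNFRSF4 (208023_at) at -0.32 and -0.30. TNFRSF1A differed by 0.07 in MyLa and TNFRSF17 by -0.02 in HH, the smallest response of the set in each line. In HH, TNFSF8 was 2.53-fold lower with IL-32γ (log2 difference -1.34), below all but 0.109% of measured probe sets, from a control value of 6.66 that leaves little room above 5. None of the other 5 measured probe sets of HH reached 1.5-fold.

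In MyLa 4 of 11 measured probe sets were thus higher by 1.5-fold or more and 0 lower, where 11.0% of all measured probe sets were higher and 9.13% lower. TNFRSF18 (224553_s_at) entered this count only through its IL-32γ value. Taking 1 probe set per gene, the brightest, CD70 was the 1 of 7 genes past 1.5-fold, where 7.77% of all genes were higher and 7.65% lower. By the mean of the probe sets of each gene, 4 of 7 genes were past it. These were CD70, TNFRSF4 (0.93), TNFRSF9 (0.68) and TNFRSF18 (0.71). In that setting 719 genes of the array were higher and 536 lower. Their share of all measured genes was not computed, so the 4 of 7 is not a result about these genes. The count per gene thus depends on how probe sets are combined. In HH 0 of 6 were higher and 1 lower, where 5.45% and 4.02% of all probe sets were. Across the lines limma called 0 of the 12 tested probe sets, and 0 of all 25306. At an unadjusted p under 0.05 it was 1 of the 12, CD70, higher, where 4.87% of all were higher and 5.29% lower. Of the 12, 8 were measured in 1 line only. Raising the other line to 5 set its response to 0, so this fit says little about those 8.

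**Figure D3:**
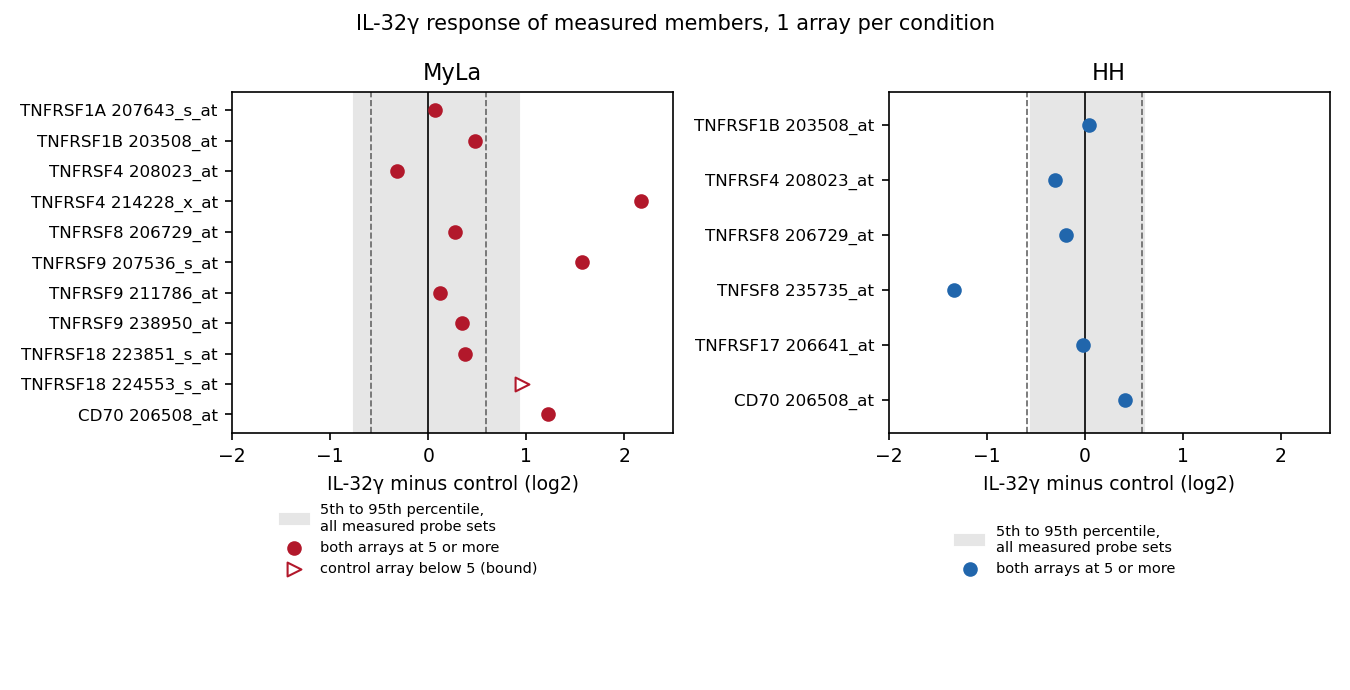
IL-32γ minus control (log2) of each measured probe set in MyLa (left) and HH (right), 1 array per condition, with the 5th to 95th percentile of all measured probe sets in grey and dashed lines at 1.5-fold. TNFRSF4 214228_x_at (2.17), TNFRSF9 207536_s_at (1.57), CD70 (1.22) and, as a bound, TNFRSF18 224553_s_at (0.96) lie beyond the grey range in MyLa, and TNFSF8 (-1.34) in HH.

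The rest of the family and its signalling arm were read from the brightest probe set of each gene, where 18.6% of 11010 genes were higher and 16.6% lower in MyLa by the same test. Of the 16 other TNF ligands 8 were tested, and 5 were higher and 2 lower in MyLa. Beside TNFSF4, TNF and LTA, the higher ones were LTB, which forms the membrane-bound lymphotoxin (3.71 with HH raised to 5, adjusted p = 0.0131), and TNFSF10 (TRAIL; 2.70, adjusted p = 0.00296). Lower in MyLa were TNFSF14 (LIGHT; -3.61 with MyLa raised to 5, adjusted p = 0.000302) and TNFSF13B. The median over the 8 was 1.95, against 0.025 over all tested genes. TNFSF4, TNF, LTB and TNFSF14 were measured in 1 line only, which by itself requires a difference, so the ligands' count and median say little. With IL-32γ, LTB was higher by 1.57 and TNFSF13B lower (-0.92) in MyLa, and none of 5 measured ligands reached 1.5-fold in HH, where 1.14% of all genes were higher and 4.46% lower.

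Of 21 other TNF receptors 8 were tested, with 2 higher and 1 lower in MyLa and a median of 0.30, and TNFRSF10A and TNFRSF19 were measured in 1 line only. FAS, a death receptor, was higher by 2.83 (adjusted p = 0.000507). So was the TRAIL receptor TNFRSF10A (4.54 with HH raised to 5, adjusted p = 0.00154). TNFRSF19 was lower (-3.11 with MyLa raised to 5, adjusted p = 0.000621). TNFRSF25, the death receptor DR3, stood at -2.37 and did not pass (adjusted p = 0.0611). With IL-32γ it was higher by 1.91 in MyLa, where TNFRSF10A was higher by 0.73, while RELT was lower in HH (-1.07).

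Of 27 genes of TRAF adaptors and the NF-κB arm 24 were tested, with 4 higher and 4 lower in MyLa and a median of 0.19. TRAF5, an adaptor of several of the costimulatory receptors above, read 2.17 and 2.13 in MyLa and 12.34 and 12.43 in HH (-7.38 with MyLa raised to 5, adjusted p = 0.000139). NFKB1 was lower in MyLa too (-2.45, adjusted p = 0.000638). The subunit genes of the alternative NF-κB route, NFKB2 (1.86, adjusted p = 0.00455) and RELB (1.92, adjusted p = 0.00817), were higher in MyLa. So were REL (1.99, adjusted p = 0.0062) and the kinase gene MAP3K14 (NIK; 1.31, adjusted p = 0.0232). With IL-32γ, 0 of 23 measured genes of this list were 1.5-fold higher in MyLa and 1 was lower. Of all genes 7.77% were higher and 7.65% lower. The lower gene was TRAF3 (-0.66), named after its value was seen. In HH 0 of 24 passed, where 1.14% of all genes were higher and 4.46% lower.

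A list of 5 factors was taken as possible regulators of the CD30 gene in lymphoma, and their action on it was not tested. Among them JUN was higher (2.17, adjusted p = 0.0016) and IRF4 lower (-1.83, adjusted p = 0.00179) in MyLa. JUNB (0.35, adjusted p = 0.169), BATF (-0.03, adjusted p = 0.964) and BATF3 (-0.79, adjusted p = 0.0604) did not pass. With IL-32γ, BATF was higher by 1.19 in MyLa, and BATF3, JUNB, IRF4 and JUN stood at 0.57, 0.32, 0.19 and 0.05. In HH the 5 lay between -0.26 and 0.05.

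**Figure D4:**
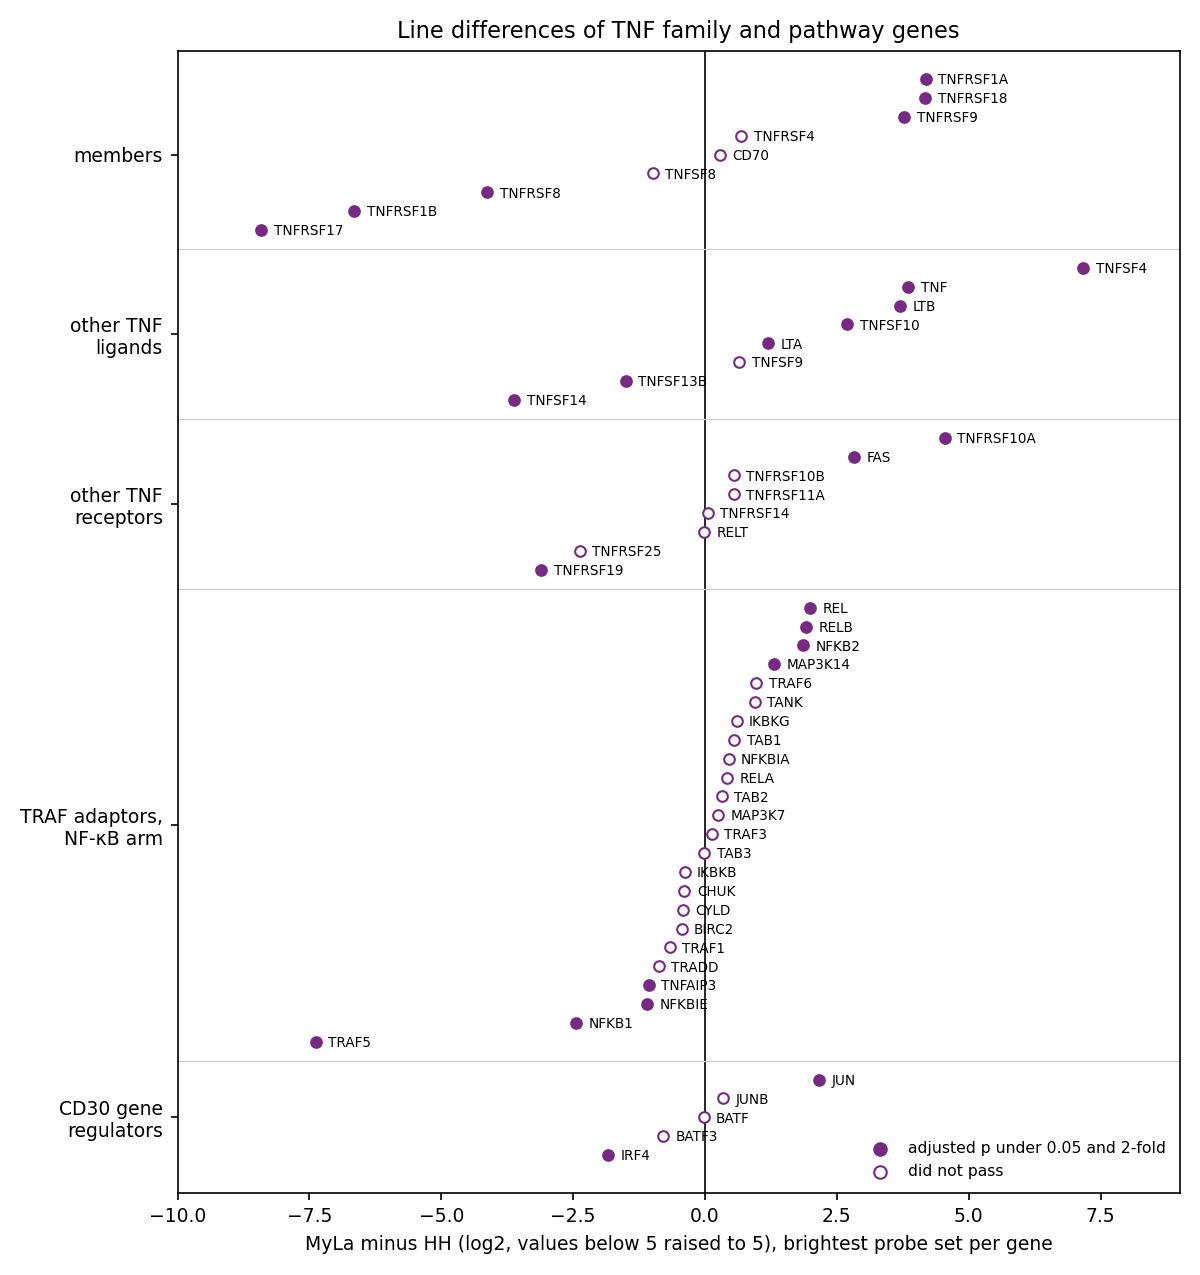
Log2 difference MyLa minus HH of each tested gene among the 10 described and the 4 TNF pathway lists, by its brightest probe set, with filled circles for an adjusted p under 0.05 in limma with a 2-fold minimum (n = 2 arrays per line). Of the genes plotted, TNFRSF17, TRAF5 and TNFRSF1B lie farthest to the HH side at -8.42, -7.38 and -6.65, and TNFSF4 farthest to the MyLa side at 7.18.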

How the data were processed

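The authors deposited log2 values, made with GCRMA per the submitters' processing notes, from biotin-labelled total RNA, per the labels. The GCRMA version is not given in the sources used here, joint normalisation of the arrays is not stated, and the log2 scale was read from the values. Symbols were those of the platform annotation, updated by Entrez identifier through RefSeq (GRCh38.p14), which matched 41043 of 41097 probe sets with 1 symbol. Values below 5 were raised to 5. Within a line, IL-32γ minus control was computed for probe sets at 5 or more on 1 of its arrays. Fits used limma 3.58.1 in R 4.3.3 on the 25306 probe sets that reached 5 on 2 or more arrays, with Benjamini-Hochberg adjustment, two-sided. The IL-32γ fit had the line as a block (1 residual degree of freedom). The line fit had none (2), a threshold of 0.05 and a 2-fold minimum. Raising a line to 5 on both arrays removes its spread from the fit. The fits were tested on simulated data whose values lay well above 5. That test therefore does not cover probe sets with a line raised to 5. Every member was named, with the partners of each receptor, up to 6 genes of each list by size of difference, and the 5 genes nearest to TNFRSF8, TNFSF8 and CD70. The genes, lists and tests were chosen with earlier results of these data known. Alternatives were other floors, normalisations, probe set choices, fold thresholds, blocks, a trend, and leaving out arrays. Tables were handled in Python 3.11.15 with pandas 2.3.3. Promoter windows came from RefSeq.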

Additional observations from a re-analysis of the deposited data

Results flagged for a closer look

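Of 8 probe sets of the described genes and their ligand partners measured on all 4 arrays, 2 went opposite ways with IL-32γ in the lines. The share of all probe sets that did so was not computed, so the count is not a result about these genes. LTA was higher by 0.54 in MyLa and stood at -0.22 in HH, a difference of 0.75 between the responses (log2, MyLa minus HH). TNFRSF8 was at 0.27 in MyLa and -0.19 in HH, a difference of 0.47. With 1 array per condition neither difference was tested, and all 4 responses were under 1.5-fold.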

How the results depend on the processing

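The counts depended most on which probe sets stood for a gene. With the brightest probe set per gene, 1 gene was higher with IL-32γ in MyLa and 3 were higher in MyLa than in HH, against 4 and 6 probe sets. Without probe sets ending in _x_at or _s_at the counts were 1 and 2. With the mean of the probe sets 4 of 7 genes were higher with IL-32γ in MyLa and 4 of 8 were higher in MyLa than in HH. Of all 10146 genes tested between the lines in that setting, 1718 were higher and 1538 lower in MyLa. With the mean, 0 of the described genes were lower in HH with IL-32γ, since TNFSF8 then fell below 5, and the TNFRSF4 difference across lines became 0.39. Fewer features are tested in these settings. At 1.3-fold 1 probe set, CD70, was higher in HH. Leaving out each array in turn left 4 to 6 probe sets higher and 3 to 4 lower in MyLa. Where 1 array was left for a line and the other line was at 5, other probe sets supplied the spread. The CD70 line difference was -0.33 without the MyLa IL-32γ array and -0.12 between the control arrays alone. Without either MyLa array the TNFRSF8 response left was that of HH, -0.19, and over all 4 arrays left out it ran from -0.19 to 0.27, while the CD70 line difference ran from -0.33 to 0.90. The other 81 recomputed counts stayed within 1.5 times the main ones. Over all probe sets the line fit called 4599 higher and 4264 lower in MyLa, against 2976 and 2782 with no floor, and 1596 to 1722 higher and 2025 to 2095 lower without an HH array. TNFRSF8 and TNFRSF1B, measured in both lines, passed between the lines in every alternative that gave a test. The line was the block of the IL-32γ fit, and IL-32γ as the block of the line fit changed no call among the 12 probe sets (TNFRSF8 adjusted p = 0.00137 in limma), although TNFRSF4 208023_at then had an adjusted p of 0.0213 with a difference still under 2-fold. The labels give no replicate numbers for any further pairing.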

Other observations

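Several signalling genes of the family had probe sets that differed in MyLa in the way seen for TNFRSF4 and TNFRSF9. These genes were chosen after their values were seen. NFKB2 was higher with IL-32γ by 1.71 on 207535_s_at and by 0.10 on its brightest probe set, 209636_at. TRAF1, an adaptor induced by NF-κB, was higher by 1.39 on 235116_at and stood at -0.23 on 205599_at. REL was at least 1.10 higher on 206035_at, where the MyLa control value lay below 5, and at -0.19 on 228812_at. In TNFRSF25 all 5 probe sets were higher with IL-32γ than without it in MyLa, by 0.65 to 2.48. FAS, with 5 probe sets, lay between -0.19 and 0.24 for the same difference in MyLa.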
